A study of Arabidopsis thaliana with 9 samples.

Results

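The flowering time integrators described here are 10 genes of the Arabidopsis thaliana leaf, namely CO (AT5G15840), FT (AT1G65480), TSF (AT4G20370), SOC1 (AT2G45660), FUL (AT5G60910), SVP (AT2G22540), TEM1 (AT1G25560), SPL3 (AT2G33810), SPL4 (AT1G53160) and SPL5 (AT3G15270). They were picked by these locus identifiers from an expression table of 27655 genes. The rule uses no expression value, although the set was chosen with earlier results of these data known. RNA sequencing was done on leaves of 3-week-old plants of 3 genotypes, with 3 libraries each. The genotype atxr5;atxr5;atxr6hyp;atxr6c-1, called hyp/c-1, is homozygous for atxr5 and pairs 1 atxr6hyp allele with 1 atxr6c-1 allele. The genotype atxr5;atxr5;atxr6hyp;atxr6hyp, called hyp/hyp, has the same atxr5 genotype and 2 atxr6hyp alleles. WT is the Col wild type. All plants were raised at 22 °C in long days, with 16 h light periods and 8 h nights. The stated purpose was to look for reasons why hyp/c-1 plants develop more abnormally than hyp/hyp plants. The time of day of harvest and what separates the replicates are not given in the labels, so p-values measure only the spread between these libraries, which may be technical.

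ATXR5 and ATXR6 encode plant enzymes that place a single methyl group on lysine 27 of histone H3. Plants decide when to flower by joining signals in a small set of genes. In long days the CO protein, a zinc finger transcription factor, accumulates in the light and turns on FT and TSF in the phloem companion cells of the leaf, and the FT protein moves to the shoot tip as the flowering signal. SVP and TEM1 repress FT, SOC1 and FUL are MADS box genes that promote flowering at the tip, and SPL3, SPL4 and SPL5 are SBP box transcription factors that promote flowering as miR156 declines with plant age.

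The mutated genes were low where the labels say they are mutated. ATXR5 had 50 to 68 reads in hyp/c-1, 44 to 64 reads in hyp/hyp and 132 to 151 reads in WT, and ATXR6 had 0 to 2, 0 to 3 and 40 to 41 reads in the same order of genotypes. Libraries held 21289647 to 38766556 reads, the lowest in hyp/hyp 2 and the highest in hyp/c-1 1. Of 4 leaf marker genes, the summed level was 24858 to 35653 TPM (the transcript abundance unit of the deposited table, scaled to gene length and library total) in hyp/c-1, 20072 to 24938 in hyp/hyp and 28008 to 29760 in WT. Of the shoot meristem markers, WUS and CLV3 were at 0 in all 9 libraries and STM did not pass 0.036 TPM. Flower markers did not pass 1.02 TPM and root markers did not pass 0.328 TPM.

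The 3 SPL genes share a target site of miR156, which is shown because it is the feature that sets them apart from the other integrators. All 10 mature miR156 forms listed by RefSeq share the seed GACAGAA at bases 2 to 8, and miR156a to miR156f have 1 sequence in common. The sequences below are from the RefSeq annotation of TAIR10.1, 5′ to 3′, with T for U. Capitals mark the seed in the microRNAs and the bases that face it in the sites.
miR156a (chr2:10676534-10676553, minus strand): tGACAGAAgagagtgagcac
miR156i (chr1:19807090-19807109, minus strand): tGACAGAAgagagagagcag
SPL3 site (chr2:14305878-14305897, plus strand): ttgcttactctcTTCTGTCa
SPL4 site (chr1:19807090-19807109, plus strand): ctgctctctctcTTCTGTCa
SPL5 site (chr3:5140598-5140617, minus strand): ccgctctctctcTTCTGTCa
Each site lies in a 3′ UTR, 50 bases past the stop codon in SPL3, 10 in SPL4 and 7 in SPL5. Against the perfect complement of miR156a, counted from the 5′ end of the site with the complement's base first, SPL3 carries G1T and C6T, SPL4 carries G1C and A7T, and SPL5 carries G1C, T2C and A7T. The bases facing the seed match in all 3. The annotated MIR156i gene lies antisense to SPL4, and its mature sequence covers exactly the SPL4 site. The site is in 1 of 3 annotated SPL4 transcripts and in the single transcript of SPL3 and of SPL5. The expression table has 1 value per gene, so the SPL4 transcripts with and without the site are added together.

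Levels were tested with limma on log2(TPM + 1), and a gene passed at a Benjamini-Hochberg adjusted p under 0.05 over the 17682 genes that averaged 1 TPM or more. SPL3, SPL4, SVP, SOC1, FUL and TEM1 were tested. FT, TSF and CO averaged under 1 TPM, and SPL5 was listed at 0. Each tested member was at 1.43 TPM or more in every library. In hyp/hyp against WT, 3 of the 6 tested members passed, all of them higher in hyp/hyp, against 20.8% of all tested genes in either direction and 11.5% higher. In hyp/c-1 against WT, 2 of 6 passed, both higher in hyp/c-1, against 20.4% of all genes in either direction and 11.2% higher. Between hyp/c-1 and hyp/hyp, limma passed 0 of 6, with 1 at an unadjusted p under 0.05, and limma voom on recovered reads also passed 0 of 9. Of all 17682 genes tested with limma there, 2.84% passed and 4435 had an unadjusted p under 0.05. The comparisons with WT share the 3 WT libraries and are not independent of each other.

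SPL3 (chr2:14305001-14306072, plus strand) rose in hyp/hyp, and of the members it had the lowest adjusted p there. It stood at 51.5, 45.5 and 43.3 TPM in hyp/c-1 libraries 1, 2 and 3, at 63.5, 51.5 and 60.7 TPM in hyp/hyp, and at 40.4, 37.8 and 34.4 TPM in WT. All 6 mutant libraries were above all 3 WT libraries, and each hyp/hyp library was at or above the highest hyp/c-1 library. SPL3 rose 1.56-fold in hyp/hyp over WT, a log2 difference of 0.63 with an SE of 0.11 (limma adjusted p = 0.00345). In hyp/c-1 it was 1.25-fold WT, with a log2 difference of 0.31 and an SE of 0.11 that missed the threshold (limma adjusted p = 0.0673). Quantile normalization brought that last value past it (log2 difference 0.32, adjusted p = 0.0435). Between hyp/c-1 and hyp/hyp, SPL3 had a log2 difference of -0.32, with a 95% interval of -0.55 to -0.082 and a limma adjusted p of 0.112. Without hyp/c-1 replicate 1 that difference was -0.39 and passed, at an adjusted p of 0.0443. In that fit 2863 of all 17682 tested genes passed, against 502 with all libraries. Bulk leaf RNA cannot tell a change in the number of cells of a type from a change in RNA per cell, here and in the results that follow.

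SPL4 (chr1:19806263-19807705, plus strand) rose in both mutants, by like amounts. Its levels were 31.6, 29.8 and 22.0 TPM in the hyp/c-1 libraries, 31.0, 29.4 and 23.7 TPM in hyp/hyp, and 18.5, 18.8 and 15.5 TPM in WT. Library 3 was the lowest of each genotype, and no mutant library was as low as the highest WT library. The gain was 1.58-fold in hyp/c-1 (log2 difference 0.62, SE 0.15, limma adjusted p = 0.0173) and 1.59-fold in hyp/hyp (log2 difference 0.64, SE 0.15, limma adjusted p = 0.0152). Between hyp/c-1 and hyp/hyp the log2 difference was -0.019 with a 95% interval of -0.35 to 0.32, which leaves room for differences of about that size either way. The hyp/c-1 call was lost without hyp/c-1 replicate 1 (adjusted p = 0.0509), hyp/c-1 replicate 2 (0.0544) or WT replicate 3 (0.0667). The hyp/hyp call was lost without hyp/hyp replicate 2 (0.0551) or WT replicate 3 (0.0601). Both SPL3 and SPL4 overlap an annotated gene on the other strand, a long noncoding RNA at SPL3 (chr2:14305008-14306053) and MIR156i at SPL4. Neither antisense gene has a value of its own in the expression table. Whether counting used the strand is not stated, so reads of such antisense RNA cannot be told apart from those of SPL3 and SPL4.

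SPL5 was listed at 0 in all 9 libraries, where a count of 0 allows up to 3 reads, or 0.0842 to 0.152 TPM. This 0 cannot be read as absence of the transcript. SPL5 (chr3:5140365-5142323, minus strand) lies wholly within the span of AT3G15260 (chr3:5138684-5142873, plus strand), which had 835 to 1533 reads. Of 421 genes of the table that lie inside another gene of the table, 420 were at 0 in every library, which is 99.8%, against 3422 of 27024 other genes, or 12.7%. The SPL15 gene, another target of miR156, and CIB1, an activator of FT, are nested in the same way and were also at 0.

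**Figure D1:**
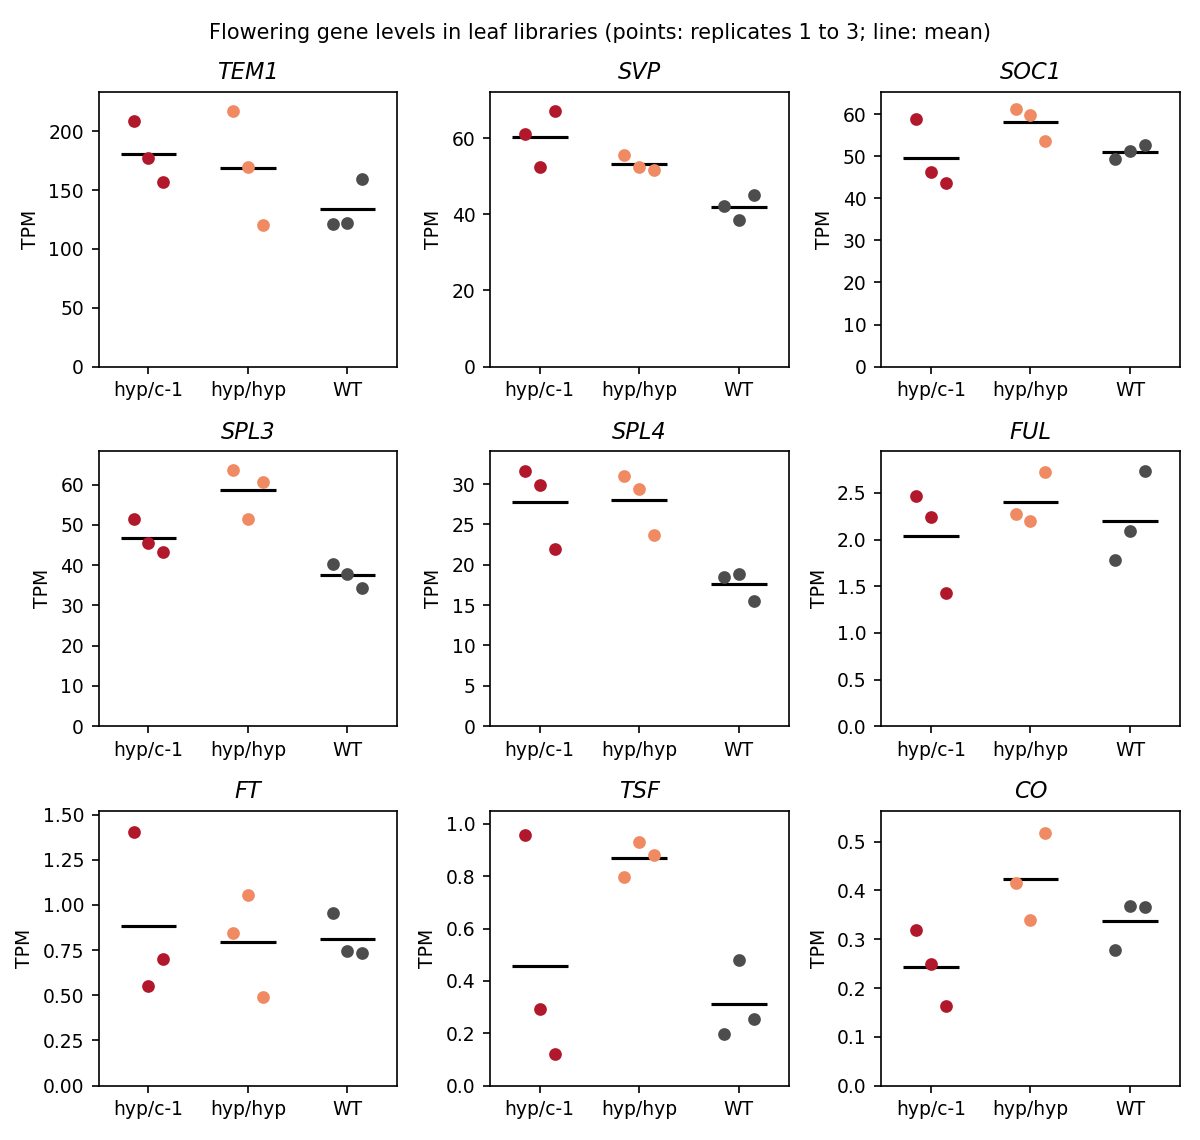
Level in TPM (vertical axes, each starting at 0) of 9 of the 10 genes in each leaf library of hyp/c-1, hyp/hyp and WT, left to right; points are replicates 1 to 3 and the black line is the mean. SPL3, SPL4 and SVP sit above WT in every mutant library, TEM1 and FUL overlap between genotypes, and FT, TSF and CO lie near or under 1 TPM.

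SVP (chr2:9579647-9583901, plus strand), the MADS box repressor of FT and SOC1, rose in both mutants together with SPL4, a gene of the opposite role. It stood at 61.0, 52.4 and 67.2 TPM in hyp/c-1, at 55.5, 52.4 and 51.7 TPM in hyp/hyp, and at 42.2, 38.6 and 45.0 TPM in WT. No mutant library overlapped with WT, while hyp/c-1 and hyp/hyp libraries overlapped. The difference was 1.44-fold in hyp/c-1 (log2 difference 0.51, SE 0.10, limma adjusted p = 0.00707), and it passed whichever of the 6 libraries was left out. The difference was 1.27-fold in hyp/hyp (log2 difference 0.34, SE 0.10, limma adjusted p = 0.0407). That call was lost when any 1 of the 6 hyp/hyp and WT libraries was left out (adjusted p 0.0572 to 0.145), and under quantile normalization or median-of-ratios scaling (0.111 under each). SVP in hyp/c-1 against hyp/hyp had a log2 difference of 0.17, with a 95% interval of -0.057 to 0.40 (limma adjusted p = 0.321).

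TEM1 (chr1:8981556-8983314, minus strand), a RAV family repressor that binds FT directly, did not separate the genotypes. It was at 209, 177 and 157 TPM in hyp/c-1, at 217, 170 and 120 TPM in hyp/hyp, and at 121, 122 and 160 TPM in WT. The highest WT library lay above the lowest library of each mutant. Neither mutant passed against WT, with log2 differences of 0.43 (SE 0.20, limma adjusted p = 0.169) in hyp/c-1 and 0.30 (SE 0.20, limma adjusted p = 0.31) in hyp/hyp. The difference of hyp/c-1 from hyp/hyp was 0.13, with a 95% interval of -0.32 to 0.58.

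SOC1 (chr2:18807505-18811125, minus strand), the MADS box integrator that answers to FT, to the SPL proteins and to repression by SVP, did not pass in any comparison. Its levels were 58.8, 46.3 and 43.6 TPM in the hyp/c-1 libraries, 61.3, 59.9 and 53.6 TPM in hyp/hyp, and 49.4, 51.3 and 52.6 TPM in WT. The hyp/hyp libraries were all above WT by a small margin, while the hyp/c-1 libraries lay on both sides of WT. The log2 difference was -0.053 in hyp/c-1 against WT (limma adjusted p = 0.787, 95% interval -0.30 to 0.19) and 0.18 in hyp/hyp against WT (limma adjusted p = 0.264, 95% interval -0.064 to 0.43). Against hyp/hyp, hyp/c-1 differed by -0.24 (limma adjusted p = 0.218). It passed there without hyp/c-1 replicate 1, at -0.36 with an adjusted p of 0.0298, as did 2863 of all 17682 tested genes. FUL (chr5:24502434-24506269, minus strand), the other MADS box promoter of flowering, was low and overlapped between all genotypes. It had 2.46, 2.24 and 1.43 TPM in the hyp/c-1 libraries, 2.27, 2.20 and 2.73 TPM in hyp/hyp, and 1.78, 2.09 and 2.74 TPM in WT. Its log2 differences were -0.079 in hyp/c-1 and 0.094 in hyp/hyp against WT, and -0.17 in hyp/c-1 against hyp/hyp, with limma adjusted p-values of 0.782, 0.712 and 0.522.

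**Figure D2:**
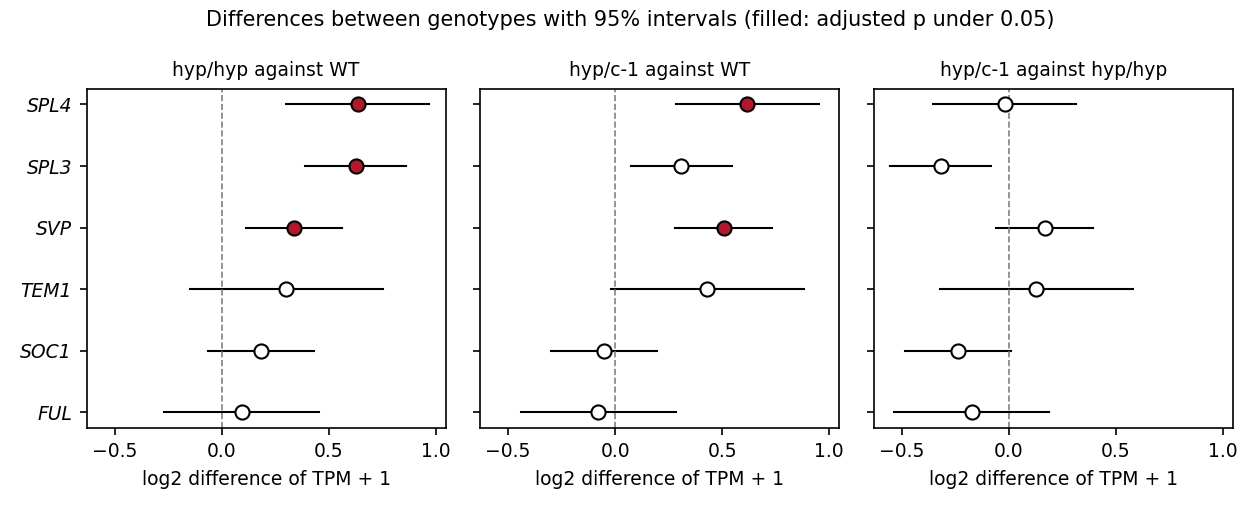
Differences on the log2(TPM + 1) scale (horizontal axis) of the 6 tested genes in 3 comparisons, each the first-named genotype minus the second; dots are limma estimates, lines 95% intervals, and filled dots have an adjusted p under 0.05. SPL4 and SVP are filled in both comparisons with WT, SPL3 in hyp/hyp against WT, and no gene is filled in hyp/c-1 against hyp/hyp.

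The members' libraries often separated, as did those of many genes. Libraries did not overlap for 4 of 6 tested members in hyp/hyp against WT, all higher, where 47.3% of all tested genes did not overlap and 27.5% were higher. The same held for 3 of 6 in hyp/c-1 against WT, all higher, against 38.3% and 19% of all genes. Between hyp/c-1 and hyp/hyp it held among the 6 for SPL3 alone, which was lower, against 23.8% of all genes and 12.1% lower. The sizes were moderate. No member passed with an absolute log2 difference of 1 or more, which 2.86% of genes did in hyp/hyp against WT, 3.2% in hyp/c-1 against WT and 0.52% in hyp/c-1 against hyp/hyp. The median log2 difference of the 6 tested members was 0.37 in hyp/c-1 against WT, where all tested genes had -0.021. It was 0.32 in hyp/hyp against WT, where all genes had 0.061, and -0.096 in hyp/c-1 against hyp/hyp, where all genes had -0.058.

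FT (chr1:24331373-24333999, plus strand), the mobile flowering signal, was low and did not separate the genotypes. It had 67, 20 and 27 reads in hyp/c-1, 31, 28 and 17 reads in hyp/hyp, and 40, 29 and 27 reads in WT. These are 1.40, 0.554 and 0.703 TPM in the hyp/c-1 libraries, 0.843, 1.06 and 0.490 TPM in hyp/hyp, and 0.953, 0.743 and 0.735 TPM in WT. Library hyp/c-1 1, also the deepest, was the highest, and the genotypes overlapped. On recovered reads, limma voom gave adjusted p-values of 0.901 in hyp/c-1 and 0.846 in hyp/hyp against WT, and 0.773 in hyp/c-1 against hyp/hyp.

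TSF (chr4:11000771-11003010, minus strand), the closest relative of FT and a flowering signal of the same kind, was higher in hyp/hyp libraries without passing a test. It had 39, 9 and 4 reads in hyp/c-1, 25, 21 and 26 reads in hyp/hyp, and 7, 16 and 8 reads in WT. In TPM these are 0.957, 0.292 and 0.122 in hyp/c-1, 0.797, 0.930 and 0.880 in hyp/hyp, and 0.196, 0.481 and 0.255 in WT. The hyp/hyp libraries lay close together and all above WT, whereas the hyp/c-1 libraries ran from below the lowest WT library to above every hyp/hyp library. The hyp/hyp mean was 2.80-fold that of WT, and limma voom on recovered reads gave a log2 difference of 1.53 with an SE of 0.57 (adjusted p = 0.0824). Between hyp/c-1 and hyp/hyp the voom log2 difference was -1.25 (adjusted p = 0.197). CO (chr5:5170162-5173085, minus strand), the activator of both signals, was lower still. It had 17, 10 and 7 reads in hyp/c-1, 17, 10 and 20 in hyp/hyp, and 13, 16 and 15 in WT. Scaled to TPM, the hyp/c-1 libraries, at 0.320, 0.249 and 0.164, were all below the hyp/hyp libraries, at 0.415, 0.339 and 0.518. The WT libraries, at 0.278, 0.368 and 0.367 TPM, overlapped with both. The voom log2 difference for CO in hyp/c-1 against hyp/hyp was -0.79 (adjusted p = 0.175). CO shares 1967 of its 2924 bp with AT5G15843, a gene on the other strand that was at 0 in all libraries, so its values may hold only part of its reads. CO RNA also cycles through the day, and the time of day at which each library was harvested is not given.

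Between genes, levels were compared as TPM per base of exon, recomputed from the recovered reads, because the deposited values divide by the whole gene including introns. In hyp/c-1, TEM1 at 121 to 161, SVP at 96.1 to 124 and SOC1 at 78.7 to 105 each overlapped with the next. Below them were SPL3 at 36.6 to 43.3, SPL4 at 17.9 to 25.7 and FUL at 3.25 to 5.58. In hyp/hyp, TEM1 at 92.3 to 168, SOC1 at 95.9 to 110 and SVP at 94.2 to 102 overlapped with each other. In WT the order was TEM1 at 93.4 to 123, SOC1 at 88.7 to 94.4, SVP at 70.3 to 82.3, SPL3 at 29.0 to 34.0, SPL4 at 12.6 to 15.3 and FUL at 4.03 to 6.21. Only TEM1 and SOC1 overlapped among these neighbours in WT. SVP thus stood below every SOC1 library in WT and overlapped with SOC1 in both mutants. FT, TSF and CO closed the order in every genotype, with none above 2.90. CO shares 1967 of its 2924 bp with AT5G15843, so its level in this order may be too low.

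The promoters of the members, taken as the 250 bases before and 50 bases from the annotated start, were searched on both strands for the SBP box core GTAC and for the CArG box of MADS proteins. GTAC, which is its own reverse complement, was present in 7 of 10, against 39.0% of 27444 promoters of the same length. The CArG box was in 0 of 10, against 3.05% of promoters. A match is only a description of the letters.

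The genes around the integrators were grouped by role into 8 lists with 69 genes outside the members. Of 15 tested photoperiod genes, 8 rose and 1 fell in hyp/c-1 against WT, 6 rose in hyp/hyp against WT, and 2 rose in hyp/c-1 against hyp/hyp. Over all tested genes, 11.2% rose in hyp/c-1 and 11.5% rose in hyp/hyp against WT. Of these 17682 genes, 1628 fell in hyp/c-1 against WT and 339 rose in hyp/c-1 against hyp/hyp. The list median log2 difference against WT was 0.55 in hyp/c-1, where all genes had -0.021, and 0.34 in hyp/hyp, where all genes had 0.061. CDF1, a Dof protein that represses CO and FT, averaged 12.6 ± 4.13 TPM in hyp/c-1, 5.31 ± 0.931 in hyp/hyp and 4.96 ± 0.305 in WT (SD, n = 3 each). It rose in hyp/c-1 against WT (log2 difference 1.14, limma adjusted p = 0.00451) and against hyp/hyp (1.06, adjusted p = 0.037), and its libraries there did not overlap. CDF3, its close relative, averaged 37.8 ± 11.7 TPM in hyp/c-1, 26.4 ± 2.23 in hyp/hyp and 14.2 ± 1.08 in WT. It rose by 1.31 on the log2 scale in hyp/c-1 (limma adjusted p = 0.00131) and by 0.85 in hyp/hyp (adjusted p = 0.0112).

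COL1, a relative of CO that lies beside it, averaged 21.6 ± 4.01 TPM in hyp/c-1, 18.7 ± 1.28 in hyp/hyp and 9.60 ± 0.828 in WT. It rose in hyp/c-1 (log2 difference 1.08, limma adjusted p = 0.000396) and in hyp/hyp (0.89, adjusted p = 0.00146). SPA1, part of the ubiquitin ligase that removes CO protein in the dark, averaged 40.0 ± 10.8 TPM in hyp/c-1, 24.5 ± 1.70 in hyp/hyp and 15.6 ± 3.83 in WT. It rose in hyp/c-1 (log2 difference 1.30, limma adjusted p = 0.00157) and in hyp/hyp (0.64, adjusted p = 0.0392). The remaining photoperiod calls are named here after their values were seen. CDF2, the photoreceptor PHYB and the photoreceptor CRY1 rose in both mutants, and COL2 rose in hyp/c-1 against WT and against hyp/hyp. FKF1, which removes CDF proteins in the light, averaged 60.3 ± 10.4 TPM in hyp/c-1 leaves, against 93.4 ± 6.19 TPM in WT, and fell by 0.63 on the log2 scale (limma adjusted p = 0.00933). COL2 shares 60.8% of its span with other genes of the table, so its reads may be incomplete. The time of day of harvest is not given, and its part in these photoperiod differences was not tested.

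Of these photoperiod calls, the 9 in hyp/c-1 against WT held whichever library was left out. In hyp/hyp, COL1, CDF2 and CDF3 also held throughout. SPA1 was lost in 5 of 6 (adjusted p up to 0.137), PHYB in 5 of 6 (up to 0.119), and CRY1 in 5 of 6 (up to 0.121). SPA1 and PHYB held there without WT replicate 3, and CRY1 without hyp/hyp replicate 3. CDF1 and COL2 in hyp/c-1 against hyp/hyp were each lost in 4 of 6 (up to 0.102 and 0.106), those without replicate 2 or 3 of either genotype. Other settings also ended some of these calls. SPA1 and PHYB in hyp/hyp were lost under quantile normalization, median-of-ratios scaling or no expression minimum (up to 0.0918 and 0.0841), and CRY1 under median-of-ratios scaling (0.0768). In hyp/c-1 against hyp/hyp, CDF1 was lost under voom, with no expression minimum or with only those genotypes in the fit (0.052 to 0.118), and COL2 was lost under the last 2 of these (0.0559 and 0.121).

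Apart from TEM1, 6 AP2 and RAV family repressors were tested. Against WT, TOE1 and SNZ rose in hyp/c-1 and TEM2 rose in hyp/hyp, where 11.2% and 11.5% of all tested genes rose. Between the mutants limma passed 0 of the 6, with 2 at an unadjusted p under 0.05, and voom passed 0. Over all 17682 tested genes, 4435 had such an unadjusted limma p there. Without hyp/c-1 replicate 1, limma passed 2 of the 6 there, and 2863 of all 17682 tested genes. TEM2, the close relative of TEM1, averaged 143 ± 20.8 TPM in hyp/c-1, 166 ± 46.6 in hyp/hyp and 95.5 ± 24.4 in WT. TEM2 overlapped between each mutant and WT, at 121 TPM in hyp/c-1 3, 116 in hyp/hyp 3 and 122 in WT 3. Its call in hyp/hyp (log2 difference 0.78, limma adjusted p = 0.0363) was lost in 4 of 6 when hyp/hyp replicate 1 or 2 or WT replicate 1 or 2 was left out (up to 0.13), and under quantile normalization, median-of-ratios scaling or no expression minimum (up to 0.0599). SNZ in hyp/c-1 (0.91, limma adjusted p = 0.0216) was lost without WT replicate 1 or 2 (up to 0.0825). TOE1 in hyp/c-1 (0.59, limma adjusted p = 0.00459) held whichever library was left out. These 3 genes were named after their values were seen.

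In the FLC clade, a group of MADS box repressors of flowering, 2 of 5 tested genes fell in each mutant against WT. Of all 17682 tested genes, 1628 fell in hyp/c-1 and 1645 fell in hyp/hyp against WT. MAF5 averaged 2.21 ± 0.434 TPM in hyp/c-1, 1.36 ± 0.461 in hyp/hyp and 12.0 ± 1.45 in WT. Its log2 differences against WT were -2.02 in hyp/c-1 (limma adjusted p = 3.93e-05) and -2.47 in hyp/hyp (adjusted p = 1.14e-05). MAF4, its neighbour, named after its values were seen, averaged 0.726 ± 0.0247, 0.756 ± 0.0519 and 2.36 ± 0.164 TPM in the same order, with log2 differences of -0.96 (limma adjusted p = 0.000249) in hyp/c-1 and -0.94 (adjusted p = 0.000414) in hyp/hyp. MAF4 and MAF5 are related copies, and how reads that fit several genes were counted is not stated. FLC itself was under the level tested, at 0.428 to 0.659 TPM in hyp/c-1, 0.800 to 1.08 in hyp/hyp and 0.134 to 0.377 in WT, so it was higher in every mutant library. On recovered reads, limma voom gave FLC a log2 difference of 1.44 in hyp/c-1 (adjusted p = 0.0161) and 2.14 in hyp/hyp (adjusted p = 0.0023) against WT. The clade held members that differed from WT in opposite directions.

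Of 2 tested FT family and partner genes, 1 rose in hyp/hyp against WT, where 11.5% of all tested genes rose. This was FD, the bZIP partner of FT protein. It averaged 3.21 ± 1.79 TPM in hyp/c-1, 5.77 ± 0.960 in hyp/hyp and 2.36 ± 0.529 in WT. The hyp/hyp difference was 1.01 on the log2 scale (limma adjusted p = 0.0247). It was lost without hyp/hyp replicate 2 or 3 or WT replicate 1 or 3 (up to 0.0852). Of 3 tested targets of the integrators, AGL42, a relative of SOC1 named after its values were seen, rose in hyp/hyp at 1.70 ± 0.421 TPM, against 0.769 ± 0.257 TPM in WT (log2 difference 0.61, limma adjusted p = 0.0181). That call was lost without hyp/hyp replicate 3 or WT replicate 1 or 2 (up to 0.075). In the gibberellin list, also named after the values were seen, the DELLA repressor RGA rose in both mutants, by 0.58 on the log2 scale in each. Its relative GAI fell by 0.41 in hyp/c-1 against WT (limma adjusted p = 0.0089) and by 0.37 against hyp/hyp (adjusted p = 0.0498). The last of these was lost without replicate 2 or 3 of either genotype (up to 0.137), and with a pseudocount of 0.1, another expression minimum, no trend or only those genotypes in the fit (up to 0.146).

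In 2 lists limma passed 0 genes in any comparison. Of 7 tested autonomous pathway genes, 0 had an unadjusted p under 0.05 in any comparison. Over all 17682 tested genes, 5887 did in hyp/c-1 against WT, 6282 in hyp/hyp against WT and 4435 in hyp/c-1 against hyp/hyp. Of 10 tested SPL genes other than the members, those with an unadjusted p under 0.05, named after their values were seen, were SPL10 and SPL16 in hyp/c-1 against WT, SPL10 in hyp/hyp against WT, and SPL9, SPL14 and SPL16 in hyp/c-1 against hyp/hyp, and voom passed 0 in both lists. Quantile normalization brought 1 autonomous pathway gene past the threshold in each comparison with WT. Without hyp/c-1 replicate 1, 1 of the other SPL genes passed in hyp/c-1 against WT and 2 in hyp/c-1 against hyp/hyp, with 1 autonomous pathway gene. Among all 17682 tested genes, 3653 passed in hyp/c-1 against WT and 2863 in hyp/c-1 against hyp/hyp without that library.

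**Figure D3:**
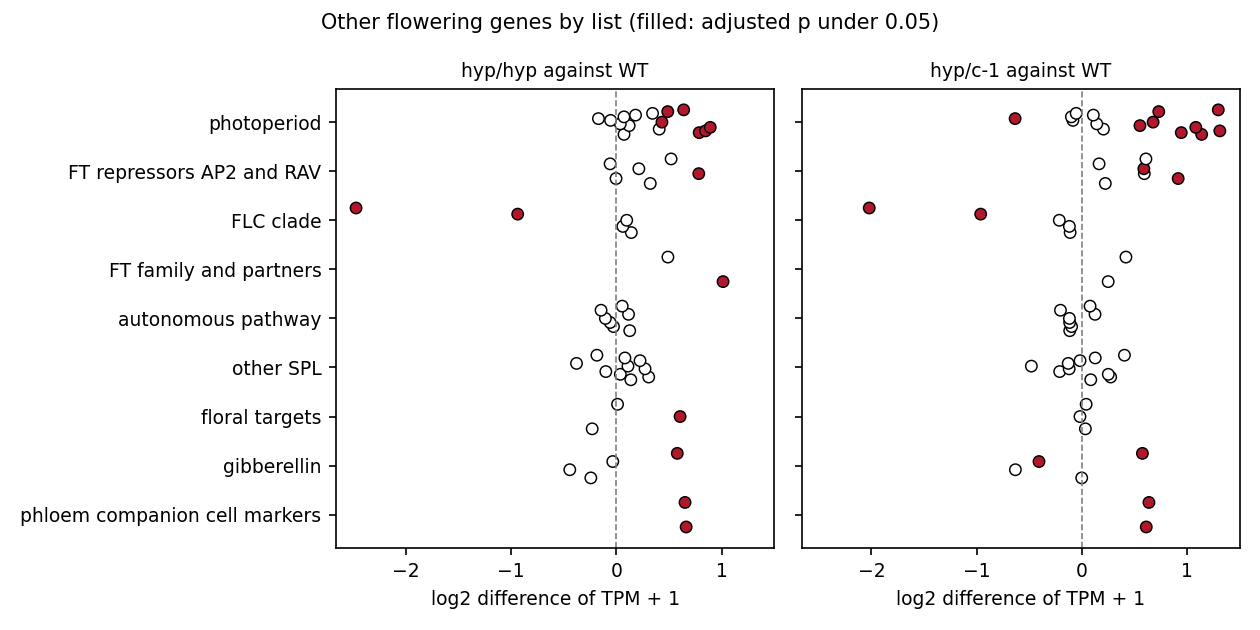
Differences on the log2(TPM + 1) scale (horizontal axis) of the tested genes of each list (rows), with hyp/hyp against WT on the left and hyp/c-1 against WT on the right; filled dots have a limma adjusted p under 0.05. The photoperiod row holds 6 higher genes in hyp/hyp and 8 higher and 1 lower gene in hyp/c-1, and the FLC clade row holds MAF5 at -2.47 and -2.02.

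No member passed with an absolute log2 difference of 1, so SPL4, which had the largest difference on the log2(TPM + 1) scale among the 6 tested members, was compared with all other tested genes for likeness of pattern. The measure was the root mean square difference of log2(TPM + 1) centred on each gene's mean, over 9 libraries and 17676 genes. SPL4 itself varied by 0.343 on that scale. The closest gene was SUC2, the sucrose transporter of companion cells, at 0.0866, followed by AT4G00780 at 0.0902 and AT5G63710 at 0.0932. The 4 genes were low in the 3 WT libraries, and in each mutant they were lower in library 3 than in libraries 1 and 2.

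**Figure D4:**
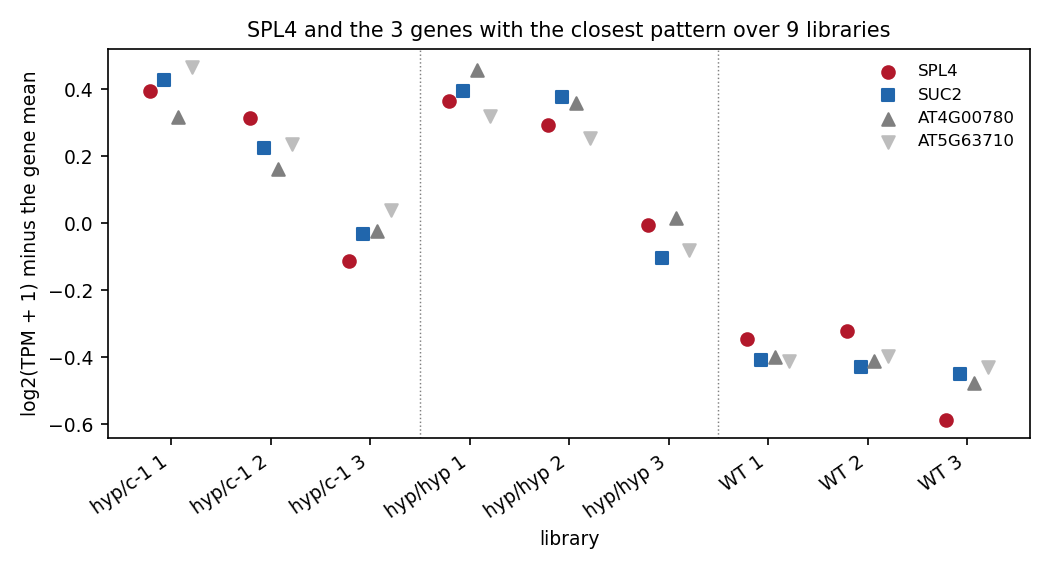
Level of SPL4, SUC2, AT4G00780 and AT5G63710 in each library, as log2(TPM + 1) minus the gene's mean over 9 libraries (vertical axis), with dotted lines between hyp/c-1, hyp/hyp and WT. SPL4 runs from -0.11 to 0.40 in hyp/c-1, from -0.0064 to 0.37 in hyp/hyp and from -0.59 to -0.32 in WT, and the other 3 genes lie close to it.

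SUC2 and AHA3, a proton pump of the same cells, were the 2 companion cell markers listed. Both rose in both mutants. SUC2 averaged 206 ± 32.7 TPM in hyp/c-1, 210 ± 38.8 in hyp/hyp and 131 ± 1.88 in WT, with log2 differences of 0.64 (limma adjusted p = 0.0141) in hyp/c-1 and 0.65 (adjusted p = 0.0127) in hyp/hyp. AHA3 averaged 94.2 ± 16.5 TPM in hyp/c-1, 98.0 ± 18.6 in hyp/hyp and 60.7 ± 1.85 in WT, with log2 differences of 0.61 (limma adjusted p = 0.0209) and 0.66 (adjusted p = 0.0148) in hyp/c-1 and hyp/hyp. The summed level of both was 251 to 349 TPM in hyp/c-1, 241 to 341 TPM in hyp/hyp and 190 to 196 TPM in WT. SPL4 and SVP passed in the same comparisons as these markers, and SPL3 passed in hyp/hyp against WT. Between hyp/c-1 and hyp/hyp the log2 differences were -0.016 for SUC2 and -0.052 for AHA3, beside -0.019 for SPL4, 0.17 for SVP and -0.32 for SPL3. The part of the markers in the members' differences was not tested. SUC2 in hyp/c-1 was lost without WT replicate 2 (adjusted p = 0.051), and in hyp/hyp without hyp/hyp replicate 2 (0.0517). AHA3 was lost in 5 of 6 in hyp/c-1 (up to 0.0746), all but the one without hyp/c-1 replicate 3, and in hyp/hyp without hyp/hyp replicate 2 or WT replicate 2 (up to 0.0583). Of the leaf markers, LHCB2.1, a light-harvesting gene with near-identical copies, rose to 4730 ± 646 TPM in hyp/c-1, against 2057 ± 310 TPM in WT (log2 difference 1.20, limma adjusted p = 0.00313). RBCS1A, a Rubisco small subunit gene named after its values were seen, fell in hyp/hyp (log2 difference -0.64, limma adjusted p = 0.0117), a call lost without WT replicate 1 (0.0521) or with no expression minimum (0.0834).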

How the data were processed

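Leaf RNA of 9 libraries was sequenced, 3 per genotype, grouped by the genotype in the labels. The authors deposited TPM values that sum to 1000000 in each library. Per the submitters' processing notes, fastp 0.20.1, HISAT2 2.1.10, DESeq2 1.26.0 and TAIR10 were named. Their roles, the counting program and the use of strand are not given in the sources used here. Gene names, coordinates and sequences are from RefSeq TAIR10.1, which matched 27445 of 27655 genes.

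Multiplying the deposited TPM by gene span recovered whole reads for 99.98% of 191811 values above 0, to within 0.02 of a read. The TPM values therefore divide by the span with introns, which lowers long-intron genes alike in all libraries. Depth was 21289647 to 38766556 reads. Floors of 3 reads cover counting error only.

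Tests used limma 3.58.1 (R 4.3.3) with an expression trend on log2(TPM + 1), a mean per genotype over 9 libraries, and genes of at least 1 TPM on average. P-values are two-sided. Differences on this scale understate the change of low genes. limma voom on the recovered reads was an alternative, and with at least 10 reads in at least 3 libraries an added one, chosen after seeing the data; it is the voom result quoted. Other alternatives were quantile normalization, a pseudocount of 0.1, median-of-ratios scaling, no minimum or one of 5 TPM on average, only the compared genotypes, a replicate block, eBayes without trend, a log2 difference of at least 1, and leaving out each library. The tests were run on simulated data first.

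The members and the gene lists were chosen with earlier results of these data known. All members were named; of the lists, genes that passed with an absolute log2 difference of at least 1, at most 4 a list, were named, and others are marked. Whether replicate numbers pair the libraries was checked by the correlation of deviations from the genotype means, which averaged -0.11 for hyp/c-1 with WT, 0.02 for hyp/hyp with WT and -0.12 for hyp/c-1 with hyp/hyp. Other steps used Python 3.11.15.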

Additional observations from a re-analysis of the deposited data

How the results depend on the processing

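The log2 differences kept their direction under the alternatives with these exceptions, none of them past the threshold. In hyp/hyp against WT, FUL was -0.017 under quantile normalization and -0.0029 to 0.21 when 1 library was left out. In hyp/c-1 against WT, leaving out 1 library gave FUL -0.18 to 0.076 and SOC1 -0.18 to 0.031. In hyp/c-1 against hyp/hyp, SPL4 was 0.057 under quantile normalization, 0.044 under median-of-ratios scaling, 0.0038 under voom with either filter and -0.13 to 0.14 when 1 library was left out, and TEM1 was -0.096 to 0.33. The causes were not tested.

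With an absolute log2 difference of at least 1 also required, 0 members passed in each comparison with WT, and the genes passing were 565 in hyp/c-1 against WT, 506 in hyp/hyp against WT and 92 in hyp/c-1 against hyp/hyp. Without that, 3603, 3678 and 502 genes passed in the same comparisons. Leaving out 1 library gave 1 to 2 members in hyp/c-1 against WT, 1 to 2 in hyp/hyp against WT and 0 to 2 for hyp/c-1 against hyp/hyp, with 1988 to 3653, 1846 to 3164 and 1 to 2863 genes. These fits leave 5 residual degrees of freedom in place of 6. The 2863 genes passed in the fit without hyp/c-1 replicate 1. In hyp/c-1 against hyp/hyp, 220 genes passed with no expression minimum, 0 in a limma fit of only the compared genotypes (3255 at an unadjusted p under 0.05) and 0 with the replicate block (3730 at an unadjusted p under 0.05), against 520 by voom on all 9 libraries without a block. The share of higher genes among those passing in hyp/hyp against WT was 55.27%, and 43.17% under quantile normalization. The correlations of deviations showed no pairing of libraries by replicate number, which does not exclude it. With the replicate block 2 members passed in hyp/c-1 against WT, 3 in hyp/hyp against WT and 0 in hyp/c-1 against hyp/hyp, with 2798 and 2750 genes in the comparisons with WT. Of the calls among the other listed genes, the block ended CRY1 (adjusted p = 0.0533) and TEM2 (0.0573) in hyp/hyp against WT, and CDF1 (0.0866), COL2 (0.0966) and GAI (0.112) in hyp/c-1 against hyp/hyp. FUL gave no value with a mean of at least 5 TPM. Depth limits FT, TSF and CO, with 4 to 67 reads each in a library.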
